A study of Mus musculus with 4 samples.

Results

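The genes described here are the 3 D-type cyclins (Ccnd1, Ccnd2, Ccnd3), their kinase partners Cdk4 and Cdk6, the kinase inhibitors Cdkn1a, Cdkn1b, Cdkn2a and Cdkn2b, and the retinoblastoma gene Rb1. They were chosen by name, as every non-control probe whose gene name on the array was 1 of these 10 symbols. That gave 16 of 61177 probes. After a filter on dim probes, 12 of the 16 and 8 of the 10 genes were left among 24658 genes and transcripts tested. The cells were C3H10T1/2, a mouse embryo fibroblast line, transformed in culture with the carcinogen 3-methylcholanthrene (3MC, 2.5 µg/ml for 2 days) and, after 4 days in plain medium, with the phorbol ester TPA (100 ng/ml, given repeatedly for 2 weeks), then grown for 4 weeks without either. All 4 arrays carry RNA of such transformed cells: 2 of untreated cells and 2 of cells exposed to 0.25 mM diethyl maleate (DEM), an electrophile that depletes glutathione. How long DEM was left on the cells, and whether transformed foci were picked from the flasks, is not stated in the labels, and untransformed cells were not analysed here. Nothing in the labels says that both arrays of a group stem from different cultures. P-values therefore measure only the spread between these 4 samples, and that spread may be technical.

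D cyclins are made in response to growth signals. They activate CDK4 and CDK6, which phosphorylate RB; phosphorylated RB releases E2F transcription factors, and E2F then switches on the genes of DNA replication. The INK4 proteins p16 and p15 (from Cdkn2a and Cdkn2b) block CDK4 and CDK6, while p21 and p27 (from Cdkn1a and Cdkn1b) mainly inhibit the later CDK2 complexes. C3H10T1/2 cells are used in transformation assays because they stop growing at confluence, a state in which the CDK inhibitors and RB take part.

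The probes are 60 bases long and are printed 5′ to 3′ as the array files hold them. Of the probes shown, some with an open reading frame over their full length are given whole, and the others by their first 30 bases. Not shown are the Cdkn2b probe and a further probe each of Ccnd2, Cdk6 and Cdkn1b. The probes of Ccnd3 and Cdkn2a and the brightest probes of Cdkn1b and Rb1 also have such a frame, so a cut does not mark a noncoding probe. Where the probes lie in their transcripts was not located. They are shown because each result rests on the probe that stands for the gene, with a second probe for Ccnd2, Cdkn1b and Rb1. No letters are in capitals because no stretch of a probe was singled out.
Ccnd1, first 30 bases: gttaattacagcattgtgctaatgtaaaga
Ccnd2, brightest probe, first 30 bases: gtctctccgtcgcatactcttgctgactaa
Ccnd2, another probe, whole: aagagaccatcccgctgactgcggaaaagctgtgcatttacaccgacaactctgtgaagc
Ccnd3, first 30 bases: gggtcttaagggtgccgtggtcattttaat
Cdk4, whole: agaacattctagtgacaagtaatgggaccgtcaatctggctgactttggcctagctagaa
Cdk6, brightest probe, whole: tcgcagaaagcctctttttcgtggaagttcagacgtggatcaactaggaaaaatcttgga
Cdkn1a, first 30 bases: ctaagggagctcacaggacactgagcaatg
Cdkn1b, brightest probe, first 30 bases: ttcattgcctgtgtatgagaaaaacttgga
Cdkn1b, another probe, whole: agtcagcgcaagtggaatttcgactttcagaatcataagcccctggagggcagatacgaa
Cdkn2a, first 30 bases: cacttctagcgatgctagcgtgtctagcat
Rb1, brightest probe, first 30 bases: attttcagagatcctgcttcgagatttctt
Rb1, the probe at background, whole: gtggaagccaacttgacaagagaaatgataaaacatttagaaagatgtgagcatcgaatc
The array files list 2 RefSeq transcripts for the Cdkn2a probe, 2 for the Cdkn1a probe and 3 for the Ccnd3 probe, so transcripts of these genes cannot be told apart. Cdkn2a encodes both p16 and the p53 activator ARF, and its probe does not separate them.

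Between 47.8% and 52.7% of the 61657 probe spots of an array were well above background, a mark set by the scanner software. The 75th percentile of signal lay at 701 and 747 without DEM and at 450 and 412 with DEM. Levels below are log2 signal minus this percentile, so a signal that stayed level on the scanner stands higher on a DEM array. All 4 arrays lay on 1 slide with 1 scan time. All 12 fibroblast markers were measured, of which 7 fell and 0 rose. All 12 were well above background on each untreated array, and 10 on each DEM array. Their summed signal ran from 1100000 to 1220000 without DEM and from 392000 to 522000 with DEM. Ptprc, Adgre1 and Itgam (macrophage), Cdh5 and Kdr (endothelium), Cdh1 and Krt18 (epithelium), Myod1, Myog and Myh3 (skeletal muscle) and Adipoq (adipocyte) were not well above background on any array. Other markers of these cells were measured: 2 of 6 for macrophage, 1 of them lower (summed signal of the list 403 and 442 without DEM, 206 and 168 with it), 1 of 4 for endothelium, which was lower (67.5 and 77.4 against 67.1 and 20.2), and 3 of 6 for epithelium, of which 0 passed (193 and 228 against 153 and 112). The 6 skeletal muscle markers together, 3 of them measured and all 3 lower, summed to 25100 and 33200 without DEM and 1280 and 1350 with it, the 4 adipocyte markers (3 measured, 1 lower) to 11600 to 12400 against 6310 to 6730, and the 3 chondrocyte markers (2 measured, 1 lower) to 5370 to 6510 against 501 to 809. The calls are from scaled levels, but the sums are of signal before scaling. The sums therefore also hold the lower signal of the DEM arrays that the 75th percentiles show. The part of these shifts in the results was not tested. Each array measured RNA of many cells together, so fewer cells with a transcript and less transcript per cell cannot be told apart.

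Of the 8 measured genes, Ccnd1 and Ccnd3 fell with DEM, and Cdkn1a and Rb1 rose. Ccnd2, Cdk4, Cdk6 and Cdkn1b did not pass the test (limma, adjusted p over all genes tested, threshold 0.05). Of all genes tested, 11.8% were lower and 15.5% higher at the same threshold, 27.2% in either direction, against 4 of 8 here. Groups did not overlap for 6 of the 8 genes, 4 lower and 2 higher, against 68.5% of all genes tested (26% lower and 42.4% higher). With each kept probe tested on its own, 2 of the 12 passed as higher and 2 as lower, against 14.6% and 12.2% of all kept probes. In log2 units the median change of the 8 genes was -0.31, against 0.16 for all genes. Higher genes made up 56.8% of those called over the whole array, but 46.6% after quantile normalization, 40.9% after cyclic loess, 42.1% with the percentile taken over detected probes, 29.0% with spike-in scaling, 70.0% with normexp background correction and 84.7% with no filter on dim probes. The median over all genes was 0.16 in the reported scaling, 0.07 after quantile normalization, between 0.00 and 0.01 in the loess, detected-probe and spike-in scalings, and 0.47 with no filter.

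**Figure D1:**
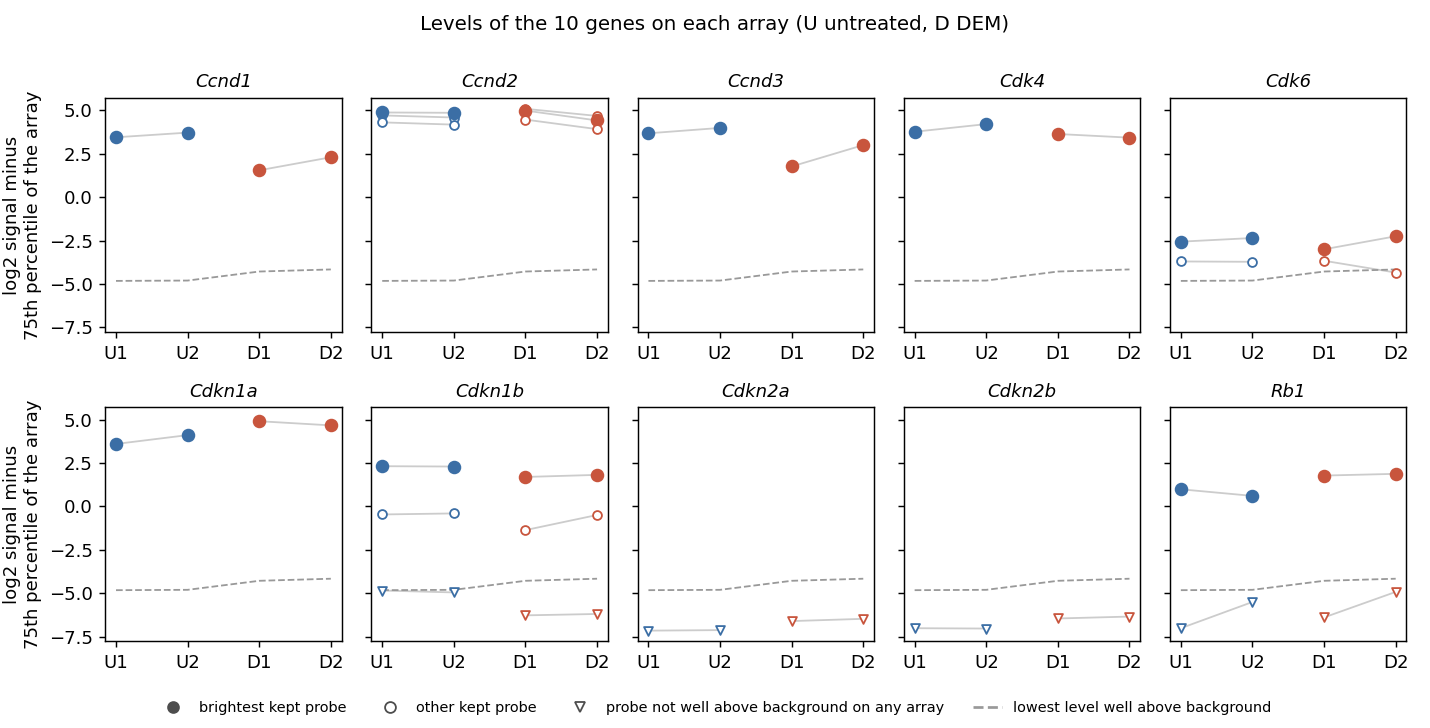
Level of every probe of the 10 genes on each array, as log2 signal minus the array's 75th percentile (y axis), for untreated arrays U1 and U2 (blue) and DEM arrays D1 and D2 (red). Filled circles are the probe that stands for the gene, open circles other kept probes, triangles probes not well above background on any array, and the dashed line the lowest level well above background (-4.82 to -4.16). The DEM points of Ccnd1 and Ccnd3 lie below both untreated points, and those of Cdkn1a and Rb1 above.

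Among the D cyclins, Ccnd1, the cyclin most tied to growth factor and Ras signalling in fibroblasts, fell. Its signal was 7670 and 9830 without DEM and 1320 and 2030 with DEM, or levels of 3.45 and 3.72 against 1.55 and 2.30. The groups did not overlap on the raw or on the scaled values, with the array DEM 1 the lowest. Ccnd1 fell by 1.66 ± 0.28 in log2 units (± is the SE throughout, with n = 2 arrays in each group; 95% interval -2.35 to -0.98), or 3.16-fold (adjusted p = 0.0103). A larger change in either direction was seen for 9.43% of all genes tested. Without untreated 1 or untreated 2 the change was -1.80 or -1.53 and did not pass (adjusted p = 0.0530 and 0.0782); with spike-in scaling it was -1.82 (adjusted p = 0.146).

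Ccnd3, the D cyclin found in most tissues, had signals of 9000 and 11900 without DEM and 1540 and 3290 with DEM. The levels were 3.68 and 3.99 against 1.77 and 3.00. Both DEM arrays lay below both untreated arrays, but they differed from each other by more than the untreated arrays did (SD 0.86 against 0.22). Ccnd3 fell by 1.45 ± 0.40 on the log2 scale (95% interval -2.42 to -0.48), or 2.74-fold (adjusted p = 0.0421). Leaving out untreated 1 (adjusted p = 0.122) or untreated 2 (0.193) ended the call, which was also lost when dim probes were kept in (0.0549), without a variance trend (0.0726) and with spike-in scaling (0.251). The change was -0.84 without DEM 1 and -2.06 without DEM 2.

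Ccnd2, a D cyclin that many fibroblasts also keep in the resting state, was bright on every array. Its brightest probe had signals of 20600 and 21700 without DEM and 14300 and 8850 with DEM, and levels of 4.88 and 4.86 against 4.99 and 4.42. The untreated arrays nearly coincided and lay between the DEM arrays. The change was -0.16 ± 0.22 (95% interval -0.70 to 0.38) and did not pass (adjusted p = 0.62). The other Ccnd2 probes changed by 0.23 ± 0.19 and -0.05 ± 0.22, so the sign differed between the 3 probes and none passed when each probe was tested on its own.

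A difference between genes within an array needs no scaling between arrays. Ccnd1 minus Ccnd2 moved by -1.50 from untreated to DEM arrays and Ccnd3 minus Ccnd2 by -1.29, in both cases with no overlap between the groups. Ccnd1 minus Ccnd3 moved by -0.21 and the groups overlapped. These differences were chosen after the values were seen and were not tested.

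The kinase genes did not pass. Cdk4, the main D cyclin kinase of connective tissue cells, had levels of 3.77 and 4.21 without DEM and 3.64 and 3.43 with DEM, and signals of 9570 and 13800 against 5620 and 4450. The groups did not overlap, but the change of -0.45 ± 0.21 (95% interval -0.96 to 0.06) had an adjusted p of 0.158. Cdk6, its close relative, was dim, with signals of 119 and 146 without DEM and 56.1 and 86.6 with DEM. Its levels were -2.56 and -2.35 against -3.00 and -2.25, and the DEM arrays lay on either side of the untreated ones. The change of -0.17 ± 0.33 (95% interval -0.97 to 0.62; adjusted p = 0.720) turned to 0.18 with normexp background correction. Its second probe was well above background on 3 of 4 arrays and changed by -0.29 ± 0.36.

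**Figure D2:**
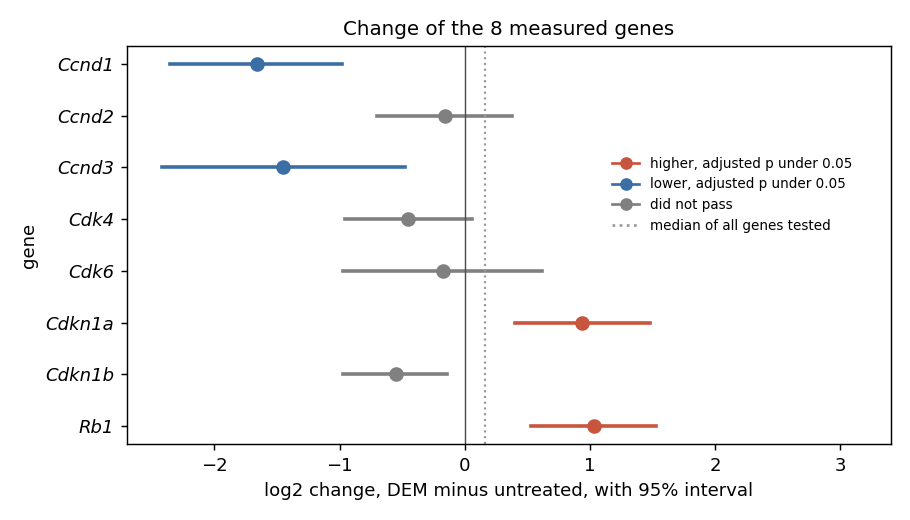
Change of each of the 8 measured genes, DEM minus untreated, on the log2 scale (x axis), with the unadjusted 95% interval of the limma fit (n = 2 arrays per group). Ccnd1 and Ccnd3 lie at -1.66 and -1.45, Cdkn1a and Rb1 at 0.94 and 1.03, and the dotted line marks the median of all genes tested (0.16).

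Of the CIP/KIP inhibitor genes, 1 passed the test. Cdkn1a, which encodes p21 and is a target of p53, had levels of 3.60 and 4.11 without DEM and 4.91 and 4.67 with DEM, with no overlap. It rose by 0.94 ± 0.22 (95% interval 0.40 to 1.48), or 1.92-fold (adjusted p = 0.0270). On the scanner its signal was 8520 and 12900 without DEM and 13600 and 10500 with DEM, so before scaling the groups overlapped. The call was lost after quantile normalization (change 0.71, adjusted p = 0.0597), after cyclic loess (0.70, adjusted p = 0.0625) and without a variance trend (adjusted p = 0.0563). It was also lost with spike-in scaling (0.78, adjusted p = 0.963). Leaving out untreated 1 gave 0.69 (adjusted p = 0.155) and leaving out untreated 2 gave 1.19 (adjusted p = 0.0585), neither of which passed.

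Cdkn1b, which encodes p27, the inhibitor that builds up in resting cells, had levels of 2.32 and 2.30 without DEM and 1.70 and 1.82 with DEM. The arrays of each group lay close together and the groups did not overlap. The change was -0.55 ± 0.17 (95% interval -0.97 to -0.14), with an adjusted p of 0.0594. It passed after quantile normalization (change -0.67, adjusted p = 0.0395), after cyclic loess (-0.72, adjusted p = 0.0313) and with the percentile over detected probes (-0.71, adjusted p = 0.0304). It also passed with normexp (-0.57, adjusted p = 0.0401) and when dim probes were kept in (adjusted p = 0.0212). The Cdkn1b probe printed whole above had signals of 510 and 567 without DEM and 175 and 293 with DEM and changed by -0.50 ± 0.32. The third Cdkn1b probe was not well above background on any array. Cdkn1a minus Cdkn1b, taken within each array and chosen after the values were seen, moved by 1.49. The groups could not overlap here, because both DEM arrays lay higher for Cdkn1a and lower for Cdkn1b.

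The INK4 inhibitor genes Cdkn2a and Cdkn2b were not well above background on any array. The signal of the Cdkn2a probe was between 4.63 and 5.36 and that of the Cdkn2b probe between 5.10 and 5.73, where the lowest signal well above background was 23.1 to 26.9. No fold is given for either gene. On the scaled values both lay higher on the DEM arrays (by 0.60 and 0.63), while their signals were slightly lower there, and values this low have no order. With no filter on dim probes, 4 of the 10 genes were called higher, and 2 of the 4 were Cdkn2a and Cdkn2b. Of all 49739 genes and transcripts tested in that setting, 17297 were called higher.

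Rb1 encodes the pocket protein that holds E2F inactive until CDK4 and CDK6 phosphorylate it. Its brightest probe had signals of 1390 and 1140 without DEM and 1550 and 1510 with DEM, and levels of 0.99 and 0.61 against 1.78 and 1.88. The groups did not overlap on either scale, though on raw signal the gap was small. Rb1 rose by 1.03 ± 0.21 (95% interval 0.53 to 1.53), or 2.04-fold (adjusted p = 0.0171). Leaving out untreated 1 gave 1.22 (adjusted p = 0.0618), leaving out untreated 2 gave 0.84 (adjusted p = 0.132) and spike-in scaling gave 0.87 (adjusted p = 0.926), none of which passed. The other Rb1 probe, printed whole above, was not well above background on any array (signal 5.37 to 16.6), so the probes disagree and the call rests on 1 probe, whose match to Rb1 is the array files' annotation and was not checked against a transcript. Of the RB relatives, named here after their values were seen, Rbl1 changed by 0.76 ± 0.37 (adjusted p = 0.178) and Rbl2 by -0.69 ± 0.22 (adjusted p = 0.0624). Rb1 minus Rbl2, within each array, moved by 1.72. Overlap was not possible for this pair, because both DEM arrays lay higher for Rb1 and lower for Rbl2.

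**Figure D3:**
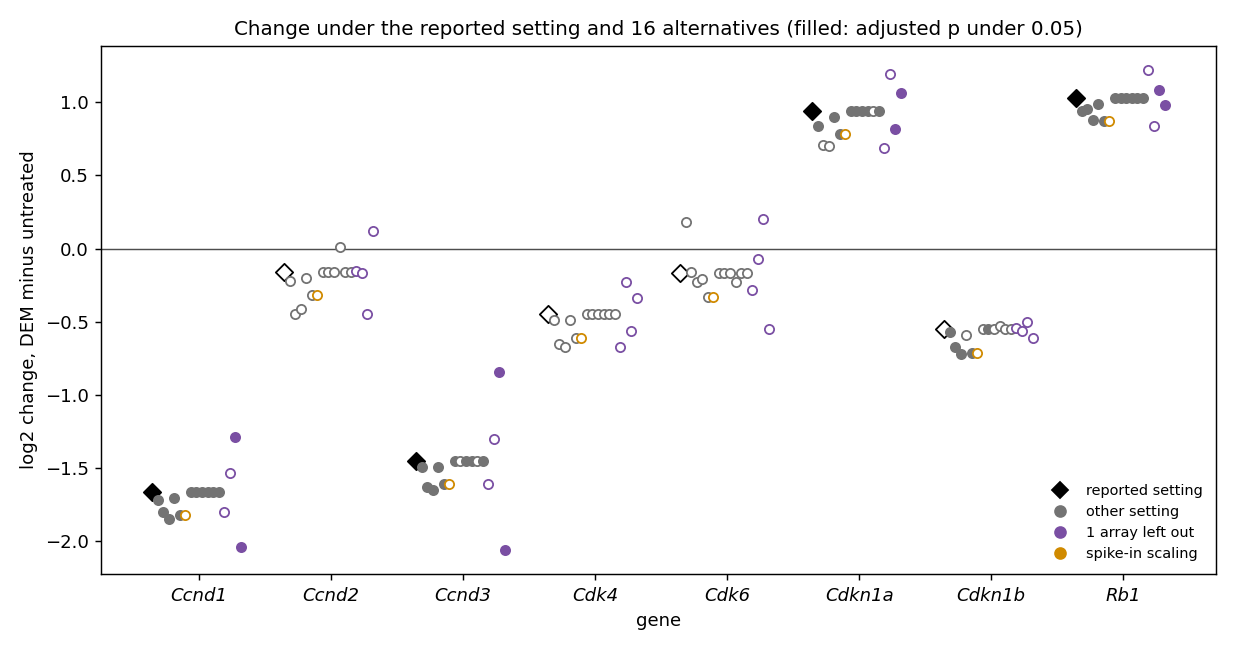
Change of the 8 measured genes (log2, y axis) under the reported setting (diamonds) and 16 alternatives (circles; purple, 1 array left out; orange, spike-in scaling); filled marks have an adjusted p under 0.05. Ccnd1 and Ccnd3 stay below 0 in every setting (-2.04 to -1.29 and -2.06 to -0.84) and Cdkn1a and Rb1 above 0 (0.69 to 1.19 and 0.84 to 1.22), while Ccnd2 and Cdk6 lie on both sides. Leaving out 1 array cannot turn the sign where groups do not overlap, as for Ccnd1, Ccnd3, Cdkn1a and Rb1.

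Other genes of the same machinery came from a list of 36 partners, of which 34 were measured. Of these, 5 rose, 1 fell and 28 did not pass, with a median of 0.18 against 0.16 for all genes; 14.7% rose, against 15.5% of all genes. By role, 0 of 6 measured cyclins of the E, A, B and H types passed, and 2 of them had an unadjusted p under 0.05. None of the 4 kinase genes (Cdk1, Cdk2, Cdk7 and the partner Mnat1) passed in limma, and 0 had an unadjusted p under 0.05. Of all 24658 genes and transcripts tested, 10155 had an unadjusted p under 0.05. Among 10 E2F and DP factors 1 rose, E2f6, a repressor that does not bind RB, by 1.23 ± 0.20 (adjusted p = 0.00973). Of 4 LIN genes, which encode the core of the DREAM complex that represses cell cycle genes together with the RB relatives, 3 rose. Lin54 rose by 1.87 ± 0.21 (adjusted p = 0.00341), Lin37 by 1.25 ± 0.20 and Lin9 by 1.19 ± 0.24. Cdc37, the chaperone partner that folds CDK4, rose by 0.51 ± 0.13 (adjusted p = 0.0361). Cdkn2c, an INK4 gene like Cdkn2a and Cdkn2b, was well above background on all arrays and fell by 1.04 ± 0.18 (adjusted p = 0.0104).

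A list of 30 E2F target genes of S phase was measured in full. Of these, 6 rose, 0 fell and 24 did not pass, with a median of 0.72 against 0.16 for all genes; 20.0% rose, against 15.5% of all genes. Pcna, the sliding clamp of DNA polymerase, rose by 1.14 ± 0.16 (adjusted p = 0.00572), and Cdt1, which loads the replicative helicase, by 1.75 ± 0.32. The helicase genes Mcm7 and Mcm3 rose by 1.18 ± 0.19 and 1.17 ± 0.29, the replication factor Mcm10 by 1.49 ± 0.42, and Rpa2, a subunit that coats single-stranded DNA, by 1.16 ± 0.28. The DEM arrays differed for this list: 29 of 30 genes were higher on DEM 2 than on DEM 1, with a median difference of 0.96, against 53.3% of all genes and a median of 0.03. The untreated arrays showed no such split (14 of 30 higher on untreated 2, median -0.03). Relative to the untreated mean, the list's median was 0.15 on DEM 1 and 1.22 on DEM 2. More of the list passed as higher without DEM 1 than with both DEM arrays, and fewer without either untreated array. Without DEM 2 some of the list passed as lower. These fits leave 1 array in a group, so their counts are not given. Among the partners, 26 of 34 were higher on DEM 2 than on DEM 1 (median 0.43). Ccnd1 and Ccnd3 were also less reduced on DEM 2 than on DEM 1, whereas Ccnd2, Cdk4 and Cdkn1a stood lower on DEM 2. What sets the DEM arrays apart was not tested.

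**Figure D4:**
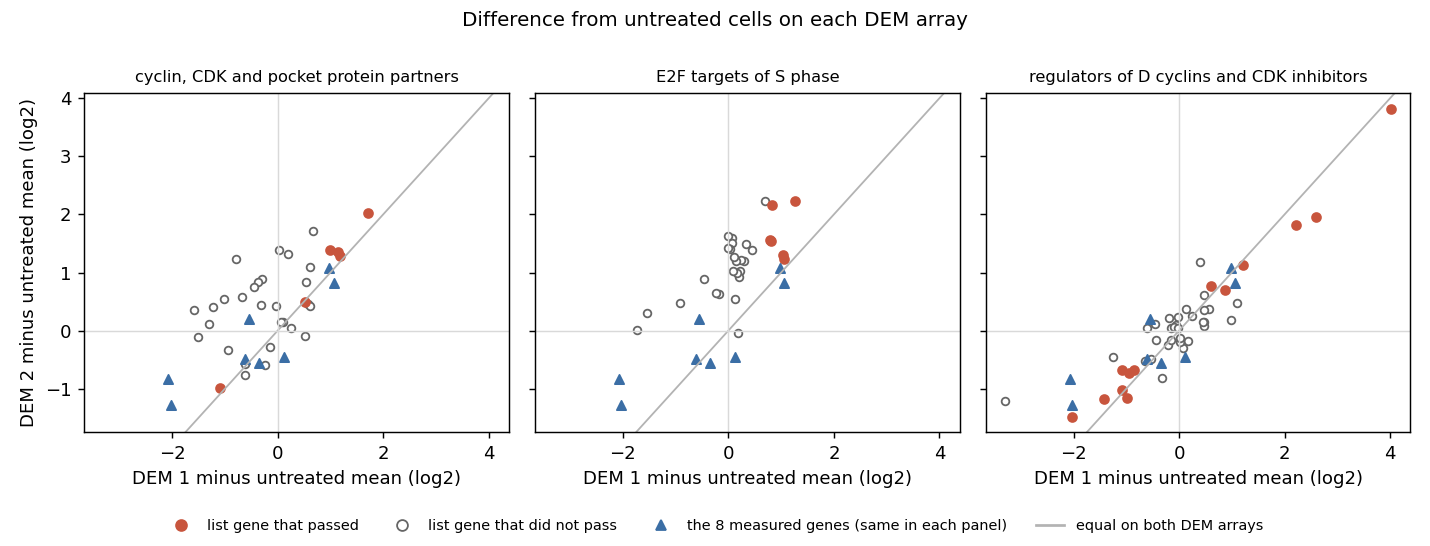
Each point is a gene, with its difference from the untreated mean on DEM 1 (x axis) and on DEM 2 (y axis), in log2; red, list genes that passed; open, list genes that did not; blue triangles, the 8 measured genes; grey line, equal difference on both arrays. Of the E2F targets 29 of 30 lie above the line, against 24 of 44 regulators.

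Regulators of the D cyclins and of the CDK inhibitors made up the last list, of 46 genes, of which 44 were measured. Of these, 6 rose, 7 fell and 31 did not pass, with a median of -0.01; 13.6% rose and 15.9% fell, against 15.5% and 11.8% of all genes. Fosl1, an AP-1 subunit, rose by 3.92 ± 0.38 (levels -0.31 and 0.87 without DEM, 4.30 and 4.10 with DEM, adjusted p = 0.00238 in limma). The other AP-1 subunits on the list did not rise. Jun fell by 0.84 ± 0.18 (adjusted p = 0.0216 in limma). Fos (-2.26 ± 0.66, adjusted p = 0.0518) and Junb (-0.16 ± 0.21) did not pass. Myc, which represses Cdkn1a and Cdkn2b through MIZ1 and activates Cdk4, rose by 2.27 ± 0.30 (levels 2.16 and 1.54 against 4.44 and 3.80; adjusted p = 0.00532). Mdm2, the ubiquitin ligase of p53, rose by 1.17 ± 0.16, and Foxo4, a forkhead factor that can activate Cdkn1b, by 2.01 ± 0.30. The untreated Foxo4 levels, -4.49 and -4.62, lay near the lowest level well above background on those arrays (-4.82 and -4.80). Fbxo31, part of a ubiquitin ligase that degrades cyclin D1 after DNA damage, fell by 1.30 ± 0.20, and Tbx3, a repressor of Cdkn2a, fell by 1.08 ± 0.18. Without untreated 1 or untreated 2 fewer genes of the list passed, as over the whole array.

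The gene of these 3 lists whose 4 levels, after removal of its own mean, were nearest to those of each measured gene was found by Euclidean distance over 108 genes and 4 arrays. For Ccnd1 and for Ccnd3 it was Id3, an inhibitor of helix-loop-helix factors (distances 0.38 and 0.65), whose levels were 4.76 and 5.52 without DEM and 3.11 and 3.66 with DEM. For Cdkn1a it was Mdm2 (0.37), for Rb1 E2f6 (0.20), for Cdkn1b E2f5 (0.20), for Cdk4 Ring1 (0.21), for Ccnd2 Rnf2 (0.15) and for Cdk6 Junb (0.21). With 4 arrays many genes share such patterns, and no test was made.

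Promoter sequences from RefSeq (GRCm38.p6; 250 bases before to 50 after a start) matched 7 of the 10 genes with 10 starts: Ccnd3, Cdk4, Cdk6, Cdkn1a, Cdkn1b, Cdkn2a and Cdkn2b. The E-box CACGTG, the site that MYC and its partner MAX bind, was searched because Myc rose; it reads the same on both strands. It was present in 2 of the 10 windows, those of Cdk4 and Cdk6, and in 7.15% of 32851 windows of the same length. The Cdk4 window held 4 copies, at bases -172, -118, -98 and -11 from the start, while Cdk4 RNA did not pass the test. The 250 bases before the Cdk4 start, at chr10:127063285-127063534 on the plus strand, are shown with the E-boxes in capitals.
Cdk4: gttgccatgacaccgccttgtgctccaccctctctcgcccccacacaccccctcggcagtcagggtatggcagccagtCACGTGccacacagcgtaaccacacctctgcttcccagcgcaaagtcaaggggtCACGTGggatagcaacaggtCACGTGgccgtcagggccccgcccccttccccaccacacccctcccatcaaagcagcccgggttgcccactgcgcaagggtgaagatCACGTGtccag
The AP-1 motif TGANTCA, searched because Fosl1 rose, was in 0 of the 10 windows and in 7.81% of all. The antioxidant response core TGACNNNGC, searched on both strands because DEM is an electrophile, was in 5 of the 10 (1 start each of Ccnd3, Cdk4, Cdkn1a, Cdkn1b and Cdkn2a) and in 12.39% of all. The E2F motif TTTCCCGC was in 1, upstream of a Cdkn2a start (1.07% of all), and TTTGGCGC and TTTCGCGC were in 0. The cAMP response element TGACGTCA was in 1 window, that of Cdkn2b (1.79% of all), its variant TAACGTCA in 0, and the GC box GGGCGG in 8 of 10 (35.66% of all). The member windows are richer in G and C than most (54.7% to 77.0%, against a median of 52.7%), and a match describes letters only.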

How the data were processed

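Cy3-labelled RNA of each sample was measured on its own 1-colour Agilent array of mouse probes. Spot intensity values were read from the deposited scanner files, made per the file headers with Agilent Feature Extraction 10.7.3.1 (background subtracted, detrended). A deposited table gives the authors' log2 values; apart from 1 constant per array they matched log2 intensity within 0.01 for 99.98% of probes or more, and they served as an alternative. Outlier spots were left out (130 probes) and no spot was saturated. Log2 signal minus the 75th percentile of non-control probes was averaged per probe. A probe was kept if 2 or more of the 4 arrays had it well above background, and each gene was represented by its brightest probe. Symbols were updated through RefSeq (GRCm38.p6); array coordinates were not used. The comparison used limma 3.58.1 (R 4.3.3; lmFit, eBayes with an intensity trend, no covariate, two-sided, Benjamini-Hochberg over 24658 genes and transcripts), with 2 residual and 4.03 prior degrees of freedom. An exact permutation test of 2 against 2 arrays cannot go below p = 0.333 and was not used.

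The genes, lists and alternatives were chosen with earlier results of these data known. All 10 genes are named. From each list the 6 genes with the smallest p are named, and for each measured gene its nearest in pattern. The other AP-1 subunits of the regulator list are named beside Fosl1, after their values were seen. The division of partners by role, the within-array differences, the motifs and the tests of single probes were chosen after the values were seen. Alternatives were 6 scalings or background corrections, the authors' values, 2 filters, the mean of probes, no variance trend, a block for the replicate number, and leaving out each array in turn. The number of arrays limits the precision.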

Additional observations from a re-analysis of the deposited data

How the results depend on the processing

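With 2 arrays per group, each call depends on few values. Changes of Ccnd1, Ccnd3, Cdk4, Cdkn1a, Cdkn1b and Rb1 kept their direction under all 16 alternatives. For many of these the outcome was fixed in advance. The groups of these genes did not overlap, so leaving out 1 array could not turn the sign. The authors' values, the 2 filters, no variance trend and the replicate block left the size of the change as reported. So did the mean of all kept probes, except for Cdkn1b, as the other genes named have a single kept probe. The median, detected-probe and spike-in scalings each move the change of every gene by the same amount, so they are no separate check for each gene. Ccnd2 turned to 0.01 with the mean of all kept probes and to 0.12 without DEM 2, and Cdk6 to 0.18 with normexp and to 0.20 without DEM 1; neither passed in any of them. With the other DEM array left out, Ccnd2 was at -0.45 and Cdk6 at -0.55.

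Of the 10 genes, 2 rose and 2 fell as reported. With spike-in scaling 0 rose and 0 fell in limma (0 and 2 at an unadjusted p under 0.05). The counts were then 0 and 0 for partners (1 and 0 unadjusted), 0 higher for E2F targets (1 unadjusted), and 1 and 1 for regulators. Over all 24658 genes and transcripts, 363 passed as higher and 889 as lower with this scaling. How many of them had an unadjusted p under 0.05 with this scaling was not counted, so the unadjusted counts lack a background. Relative to the spike-ins, the 75th percentiles lay at -2.76 and -3.41 without DEM and at -2.79 and -3.70 with it, so this scaling widens each group. After quantile normalization and after cyclic loess 1 of the 10 rose, and with no filter 4 rose. Without a variance trend 1 rose and 1 fell, with 3 E2F targets higher. The share of all genes that passed in these settings was 24.9%, 25.1%, 41.1% and 21.9%, in that order. With cyclic loess and with the percentile over detected probes 2 partners fell, against 3658 and 3573 of all 24658 genes and transcripts.

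With 1 array left out, between 0 and 2 of the 10 genes rose and between 0 and 2 fell; partners ranged from 1 to 12 higher and 0 to 9 lower, E2F targets from 0 to 24 higher and 0 to 3 lower, and regulators from 2 to 7 higher and 0 to 9 lower. Without an untreated array the residual variance comes from the DEM pair alone (SD of the difference 0.63, against 0.52 for the untreated pair). Over all genes too, fewer passed with either untreated array left out.

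With the replicate block 2 of the 10 genes rose and 2 fell. Partner counts were 6 and 1, E2F target counts 8 and 0, and regulator counts 7 and 9. Of all 24658 genes and transcripts, 4473 rose and 3378 fell with the block. The labels do not say what a shared number marks; deviations of same-numbered arrays from their group means correlated at 0.10 across probes. Outside these, Cdk6, Cdkn2a, Cdkn2b, Foxo4 and the second Rb1 probe are limited by signal near background.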

Other observations

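Within each array, Cdkn1a minus Ccnd1 moved by 2.60 from untreated to DEM arrays and Ccnd1 minus Cdk4 by -1.21, each with no overlap between the groups. For Cdkn1a minus Ccnd1 this had to hold, because both DEM arrays lay higher for Cdkn1a and lower for Ccnd1. Neither difference was tested, and both pairs were chosen after the values were seen. Rb1 minus Rbl1 moved by 0.27 and the groups overlapped.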
